A study of Mus musculus with 3 samples.

Results

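The 9 genes described here encode the enzymes that write, copy, oxidise and excise DNA methylation in mouse cells, with 1 methyl-CpG reader, and they were followed in regulatory T cells that had been through inflammation. They are Dnmt1, Dnmt3a, Dnmt3b, Uhrf1, Tet1, Tet2, Tet3, Tdg and Mbd2, taken by their GENCODE M21 symbols as 9 of the 55536 gene rows of the deposited gene tables. The rule uses their names and no measured value. Polyadenylated RNA was sequenced from primary cells of 1 mouse donor at 12 weeks of age, as 3 libraries labelled technical replicates 1 to 3 of 1 biosample, with Covaris shearing. The cell source was labelled as activated regulatory T cells, and the sources used here do not give strain, genotype, sex, inflammatory agent or sorting gate. All 3 libraries form 1 group with no control, so the comparisons are among the genes, among their transcripts and among the libraries. Every SD below is a spread between these libraries, which the labels call technical, and whether they came from separate cell sorts is not stated.

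In mammals, cytosines followed by guanines carry methyl groups that are copied at each cell division. UHRF1 recognises the half-methylated sites left behind the replication fork and brings in DNMT1, the maintenance methyltransferase, while DNMT3A and DNMT3B methylate sites anew. TET1, TET2 and TET3 are dioxygenases that oxidise 5-methylcytosine, the glycosylase TDG removes the later oxidation products for base excision repair, and MBD2 binds methylated CpG and recruits the NuRD corepressor. Stable expression of Foxp3, the factor that defines regulatory T cells, depends on demethylation of an enhancer in its first intron, to which TET enzymes contribute, and these cells are also known to need DNMT1 and UHRF1.

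The promoter windows of the maintenance pair are shown because Dnmt1 has transcripts from separate starts whose shares are reported further on, and because Dnmt1 and Uhrf1 held the only E2F sites found among the windows of these genes. E2F factors switch on genes at the start of DNA replication. Each window runs from 250 bases before to 50 bases after a start in RefSeq (assembly GRCm38.p6), is written 5′ to 3′ on the strand of the gene, and carries E2F sites in capitals. Dnmt1 window 1, at chr9:20959839-20960138 on the minus strand, is the farthest upstream and holds the start of the transcript Dnmt1-202. Dnmt1 window 2, at chr9:20952930-20953229, holds the start of Dnmt1-201, and Dnmt1 window 3, at chr9:20952574-20952873, lies just downstream of it and holds the start of Dnmt1-203. Uhrf1 window 2, at chr17:56304063-56304362 on the plus strand, holds the starts of Uhrf1-202 and Uhrf1-204. Of the gene's TPM, Uhrf1-204 took 65.9 ± 29.9% and Uhrf1-202 took 4.42 ± 7.25%. Of the Dnmt1 TPM, Dnmt1-203, which starts in the only Dnmt1 window with E2F sites, took 0.81 ± 0.70%. Dnmt1-201 took 58.9 ± 2.71% and Dnmt1-202 took 29.5 ± 4.18%, and their windows held no E2F site.
Dnmt1 window 1: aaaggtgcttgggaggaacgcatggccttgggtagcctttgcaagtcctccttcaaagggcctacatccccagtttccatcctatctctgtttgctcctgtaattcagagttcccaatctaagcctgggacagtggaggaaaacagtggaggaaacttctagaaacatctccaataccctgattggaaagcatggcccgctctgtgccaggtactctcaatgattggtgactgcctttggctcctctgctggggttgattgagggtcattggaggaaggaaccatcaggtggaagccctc
Dnmt1 window 2: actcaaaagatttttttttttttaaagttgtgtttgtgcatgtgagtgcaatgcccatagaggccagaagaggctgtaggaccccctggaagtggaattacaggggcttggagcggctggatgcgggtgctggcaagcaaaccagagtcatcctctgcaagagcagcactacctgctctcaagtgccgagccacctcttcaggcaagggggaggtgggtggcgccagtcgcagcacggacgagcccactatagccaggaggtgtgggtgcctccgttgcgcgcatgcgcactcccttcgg
Dnmt1 window 3: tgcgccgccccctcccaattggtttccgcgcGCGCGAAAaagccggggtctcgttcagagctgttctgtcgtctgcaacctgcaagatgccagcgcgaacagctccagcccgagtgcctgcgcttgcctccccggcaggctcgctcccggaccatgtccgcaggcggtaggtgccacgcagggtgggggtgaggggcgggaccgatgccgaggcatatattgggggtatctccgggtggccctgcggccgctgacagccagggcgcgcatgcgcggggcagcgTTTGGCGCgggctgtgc
Uhrf1 window 2: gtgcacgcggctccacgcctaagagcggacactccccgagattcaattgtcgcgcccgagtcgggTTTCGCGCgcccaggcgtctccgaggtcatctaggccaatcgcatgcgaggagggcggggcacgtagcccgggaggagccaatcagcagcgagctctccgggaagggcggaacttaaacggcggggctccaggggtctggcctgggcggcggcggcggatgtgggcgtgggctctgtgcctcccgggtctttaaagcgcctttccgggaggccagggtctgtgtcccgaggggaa

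The E2F motifs searched, TTTCGCGC and TTTGGCGC on both strands, occurred in 2 of the 13 windows available for 8 of the 9 genes. Dnmt1 window 3 held both, TTTCGCGC as its reverse complement, and Uhrf1 window 2 held TTTCGCGC. Among all 32851 promoter windows of the same length, 0.323% held TTTCGCGC and 0.514% held TTTGGCGC. A match is only a description of the letters in the window. The Dnmt1 windows also differed in CG dinucleotides, with 2 in window 1, 12 in window 2 and 33 in window 3. Uhrf1 window 2 held 33. The 13 windows held 2 to 57 CG dinucleotides with a median of 26, against a median of 7 over all windows (interquartile range 3 to 20). Those windows were not limited to genes expressed in these libraries, and Dnmt3a windows 1 and 2 overlap, so the medians are not a like comparison.

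A second stretch of sequence separates the coding forms of Dnmt3b. The annotation of GRCm38 gives forms of 839 and 776 residues that start together. Their coding sequences differ by 2 exons, of 70 and 119 bases, lying within chr2:153683608-153684477 on the plus strand. These 189 bases are 63 codons of the C-terminal catalytic part. The form without them is the one known as Dnmt3b3, which lacks methyltransferase activity. The first line is the 2 exons as spliced into the longer form, with the second exon in capitals, and the second line is the junction made when both are skipped, with the exon after the skip in capitals.
Dnmt3b exons of the 839-residue form: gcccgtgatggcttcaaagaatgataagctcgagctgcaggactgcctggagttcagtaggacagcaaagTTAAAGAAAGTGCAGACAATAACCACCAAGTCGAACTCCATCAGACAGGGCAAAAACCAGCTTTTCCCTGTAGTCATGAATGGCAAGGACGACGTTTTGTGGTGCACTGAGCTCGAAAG
Dnmt3b junction of the 776-residue form: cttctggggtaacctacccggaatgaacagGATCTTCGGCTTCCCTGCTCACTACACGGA

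The libraries held 35652707, 31665170 and 37810591 expected counts, which are reads shared out among genes by the authors' model and need not be whole. All 7 regulatory T cell markers were detected, meaning a TPM (a level per transcript length, scaled to 1 total in each library) of at least 1 in every library, and Foxp3 was at 98.12, 98.36 and 96.45 TPM. Library 3 stood apart by transcripts of salivary gland, whose 5 markers summed to 54668 TPM in library 3 against 4.56 in library 1 and 10.9 in library 2. Because of that shared total, tests between libraries used TMM-scaled counts instead (a trimmed mean of log ratios sets the scale of each library). Of the B cell markers 5 of 6 were detected, with sums of 63.2, 64.9 and 60.5 TPM, and the CD8 T cell markers summed to 19.4, 26.5 and 16.9 TPM, nearly all of it Cd8b1. Of 6 myeloid markers Cst3 alone was detected, at 129.1, 123.58 and 124.14 TPM, with Lyz2 at up to 1.93 TPM and Cd14 at 0. Red cell and platelet markers summed to 9.87, 25.05 and 15.0 TPM, mostly Hbb-bs, with Ppbp at 0. NK cell markers summed to 2.44, 2.88 and 3.13 TPM and epithelial markers to 36.5, 27.3 and 45.4 TPM, mostly Epcam. The part of other cells in the levels of the 9 genes was not tested. In bulk RNA, fewer cells of a type and less RNA per cell cannot be told apart.

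All 9 genes were detected, and their mean levels ran from 4.33 to 299 TPM. The reader Mbd2 stood highest, Dnmt1, Dnmt3a, Tdg, Tet3 and Tet2 lay between 30.7 and 51.9 TPM, and Uhrf1, Tet1 and Dnmt3b lay below 10 TPM. Over the 12883 genes detected in these libraries the median level was 24.1 TPM, so 6 of the 9 genes lay above it and 3 below it.

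Among the maintenance genes, Dnmt1 (chr9:20907209-20959888, minus strand) measured 57.67, 54.55 and 43.48 TPM in libraries 1, 2 and 3, a mean of 51.9 ± 7.46 TPM (SD, n = 3 libraries). Its level was above that of 70.4% of detected genes. Uhrf1 (chr17:56303321-56323486, plus strand) measured 11.87, 5.87 and 6.55 TPM, a mean of 8.10 ± 3.29 TPM. Library 1 was the highest for both genes, and for Uhrf1 it stood well clear of the other libraries. Every library had less Uhrf1 than Dnmt1.

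The de novo enzymes lay far apart from each other. Dnmt3a (chr12:3806007-3914443, plus strand) measured 40.89, 47.86 and 44.41 TPM, a mean of 44.4 ± 3.49 TPM. Dnmt3b (chr2:153649450-153687730, plus strand) measured 6.09, 3.59 and 3.30 TPM, a mean of 4.33 ± 1.53 TPM, the lowest of the 9 genes. Only 17.4% of detected genes had a lower level than Dnmt3b.

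Of the TET dioxygenases, Tet3 (chr6:83362373-83459084, minus strand) measured 39.86, 36.03 and 36.11 TPM, a mean of 37.3 ± 2.19 TPM. Tet2 (chr3:133463679-133545139, minus strand) measured 34.88, 23.83 and 33.25 TPM, a mean of 30.7 ± 5.97 TPM, with library 2 the lowest. Tet1 (chr10:62804570-62908996, minus strand) measured 6.36, 5.78 and 5.77 TPM, a mean of 5.97 ± 0.338 TPM. Tet1 was thus the least abundant TET transcript in every library, and the ranges of Tet3 and Tet2 did not overlap but their bounds did.

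Tdg (chr10:82629828-82650799, plus strand), the glycosylase of the pathway, measured 34.85, 45.34 and 32.60 TPM, a mean of 37.6 ± 6.80 TPM, with library 2 the highest. Mbd2 (chr18:70568189-70626131, plus strand) measured 297.83, 318.26 and 280.77 TPM, a mean of 299 ± 18.8 TPM. Of all detected genes, 96.1% had a lower level than Mbd2. The authors' TPM bounds lie around a posterior mean and not around the TPM itself, and the Mbd2 TPM lay above its upper bound in every library.

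**Figure D1:**
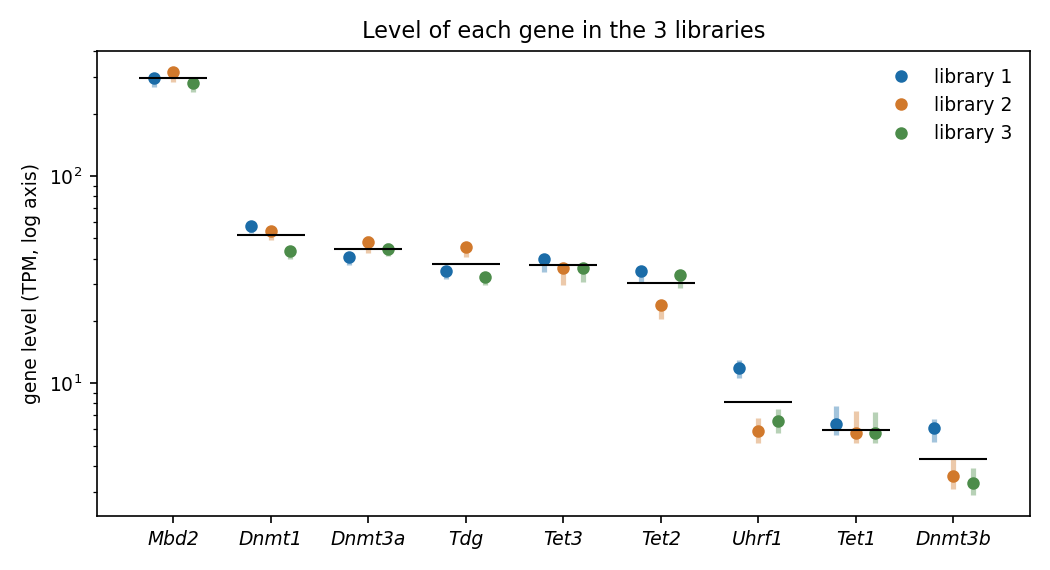
TPM of each gene on a log axis, with 1 point per library, the authors' lower and upper bounds as thin bars and the mean as a horizontal line. Mbd2 sits near 299 TPM, 5 genes sit between 30.7 and 51.9 TPM, and Uhrf1, Tet1 and Dnmt3b sit below 10 TPM, with library 1 the highest for Uhrf1 and Dnmt3b.

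The order of the 9 genes fell into 3 tiers. For each pair, the difference in log2(TPM + 1) was called apart where it kept its sign in all libraries, where no value of the lower gene reached the range of the higher one and where the authors' bounds overlapped in no library. By that rule 26 of the 36 pairs were apart, but only 2 of the 8 pairs of neighbours in the order. Mbd2 stood above Dnmt1 by 2.51 ± 0.16 on the log2 scale, and Tet2 stood above Uhrf1 by 1.84 ± 0.35. Within the middle tier Dnmt1 was apart from Tet3 (0.46 ± 0.17) and from Tet2 (0.75 ± 0.39), and Dnmt3a was apart from Tet2 (0.54 ± 0.39), while its other 7 pairs were not. No pair within the lowest tier was apart, the widest being Uhrf1 over Dnmt3b at 0.75 ± 0.15. With 3 libraries the exact two-sided sign-flip permutation test cannot give a p below 0.25, which 33 pairs reached (0.273 after Benjamini-Hochberg adjustment over the 36 pairs), so no pair could pass 0.05.

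Much of the TPM of 4 of these genes came from transcripts that encode no complete protein in the annotation. These are retained introns, processed transcripts without a reading frame, transcripts annotated for nonsense-mediated decay, and coding models cut short at an end. They took 90.3 ± 1.98% of the TPM of Tet1, 70.9 ± 2.23% of Dnmt3a, 66.2 ± 3.21% of Tet2 and 58.8 ± 2.00% of Tet3. The shares were 22.5 ± 0.29% for Tdg and 22.3 ± 1.66% for Mbd2. They were 10.8 ± 2.32% for Dnmt1, 10.6 ± 5.01% for Dnmt3b and 5.03 ± 4.36% for Uhrf1.

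In Tet1, Dnmt3a and Tet3 a single short transcript carried most of that TPM, and in Tet2 no single one did. For Tet1 it was the processed transcript Tet1-202, 1505 bases long, at 74.4 ± 4.30% of the gene, against 9.12 ± 0.92% for Tet1-206, the 14369-base transcript that encodes 2039 residues. For Dnmt3a it was the retained-intron transcript Dnmt3a-202, 1944 bases long, at 37.2 ± 4.44%. Of the full-length Dnmt3a transcripts, which both encode 908 residues, Dnmt3a-201 took 13.9 ± 4.03% and Dnmt3a-218 took 7.63 ± 7.13%. For Tet3 it was the processed transcript Tet3-201 at 39.9 ± 2.90%, followed by the 469-base incomplete model Tet3-204 at 16.8 ± 0.36%. Tet2 had its complete transcript Tet2-201 at 33.8 ± 3.23%, nearly level with the 423-base incomplete model Tet2-205 at 32.0 ± 6.88%, and the single-exon retained intron model at 20.6 ± 0.24%. Among the remaining genes, Mbd2-201 led with 77.4 ± 1.61%, and the 494-base Mbd2-204 with a retained intron followed with 14.1 ± 1.62%.

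Since TPM divides by length, short transcripts weigh more in it than in reads. Of the expected counts, the transcripts without a complete coding sequence took 47.1 ± 5.70% in Tet1, 33.4 ± 3.40% in Dnmt3a, 24.9 ± 1.81% in Tet3 and 23.4 ± 1.36% in Tet2, and below 8% in each of the other 5 genes. The model estimated these shares from reads that fit several transcripts.

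**Figure D2:**
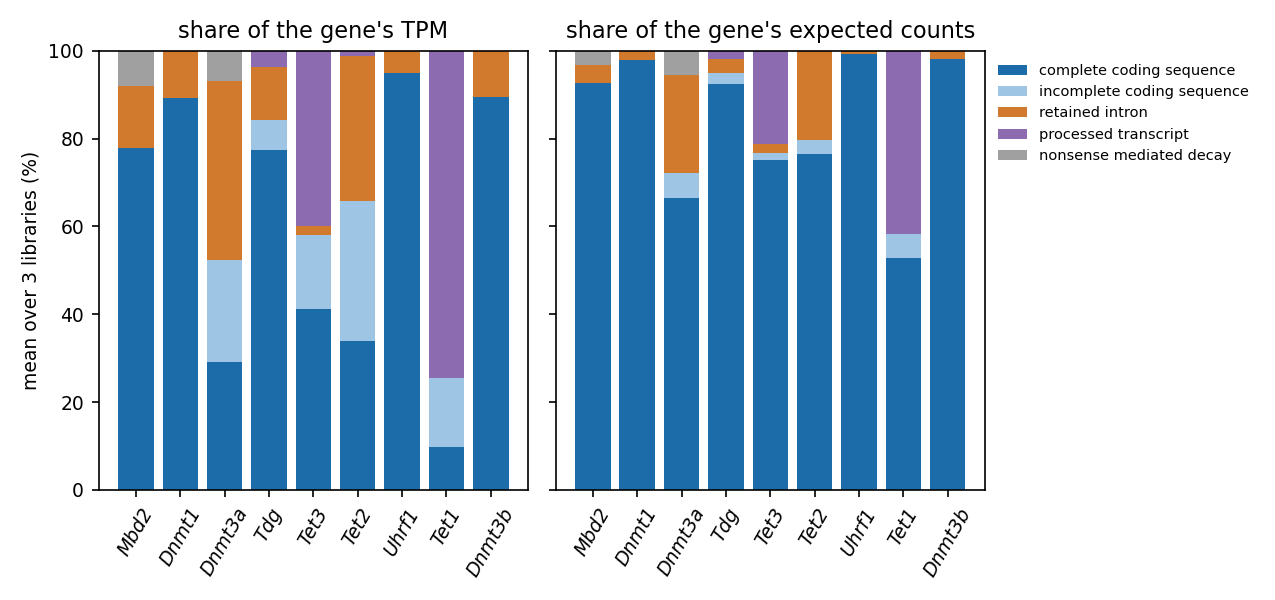
Mean share of each gene's TPM (left) and of its expected counts (right) by transcript class, in percent over 3 libraries. Complete coding sequences hold 9.71% of the TPM of Tet1 but 52.9% of its counts, and more than 92% of the counts of Mbd2, Dnmt1, Tdg, Uhrf1 and Dnmt3b.

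Restricted to complete coding sequences, a choice made after seeing the data, the levels were 232 ± 16.4 TPM for Mbd2, 46.4 ± 7.43 for Dnmt1 and 29.1 ± 5.37 for Tdg. They were 15.4 ± 0.495 TPM for Tet3, 12.9 ± 0.110 for Dnmt3a and 10.25 ± 1.34 for Tet2. Uhrf1 then had 7.63 ± 2.88 TPM, Dnmt3b 3.83 ± 1.16 and Tet1 0.577 ± 0.098. No authors' bounds exist for such sums, so pairs were judged by sign and range alone, a rule by which 28 of 36 pairs were apart in the gene TPM. On this scale 35 of 36 were, the exception being Tet2 and Uhrf1. Dnmt3a had moved from rank 3 to rank 5 in the order, while Tet2 kept rank 6. The levels of Dnmt3a, Tet3 and Tet2 all lay nearer to that of Uhrf1 than in the gene TPM. Tet1, at 0.52, 0.52 and 0.69 TPM, was the lowest of the 9 genes and below the detection level of 1 TPM in every library. No pair apart in the gene TPM with the authors' bounds was apart in the other order here. By sign and range alone, Dnmt3a was apart above Tet3 in the gene TPM. On complete coding sequences Tet3 was apart above Dnmt3a, by 0.24 ± 0.06 on the log2 scale.

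**Figure D3:**
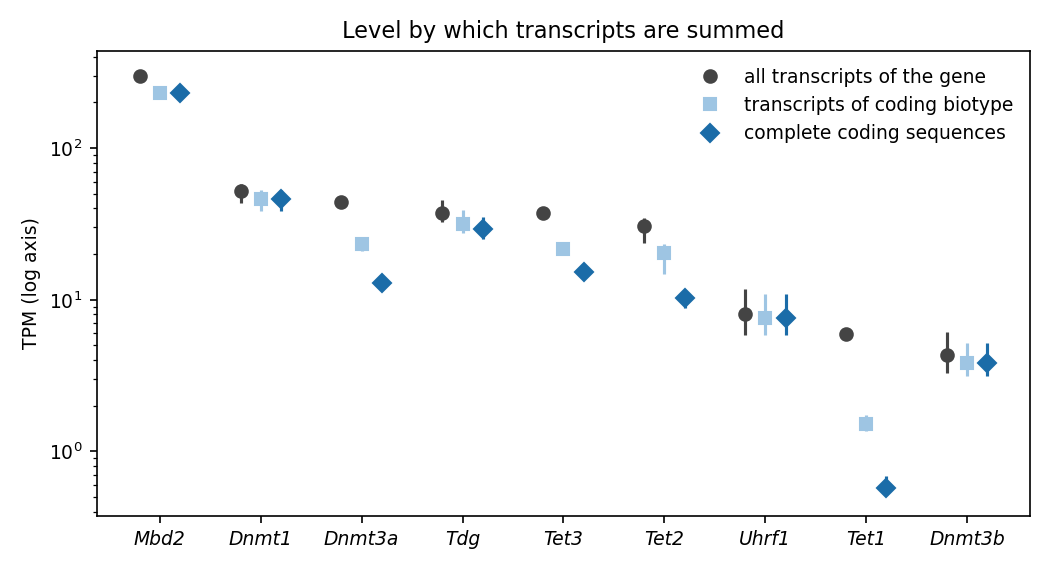
Mean TPM of each gene on a log axis when all transcripts, transcripts of coding biotype or complete coding sequences are summed, with bars from the lowest to the highest library. Dnmt3a reads 44.4, 23.25 and 12.9 TPM on the 3 sums and Tet1 reads 5.97, 1.52 and 0.577 TPM, whereas Dnmt1, Uhrf1 and Dnmt3b change little.

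Among complete coding sequences, 5 genes divided their TPM between proteins of different length. Dnmt1 was assigned mostly to its 1620-residue form from Dnmt1-201, at 62.7%, 65.2% and 70.4% in libraries 1 to 3 (66.1 ± 3.92%). The remaining 33.9 ± 3.92% fell to forms of 1501 residues, 119 fewer, nearly all of it to Dnmt1-202, whose start lies 6909 bases upstream in the CG-poor window 1 printed above. Dnmt1-202 took 33.07%, 30.47% and 24.88% of the gene's TPM. Mouse oocytes are known to use an upstream first exon of Dnmt1 that yields a shorter protein lacking the N terminus. The files do not say whether Dnmt1-202 is that transcript, and it shares all but 154 of its 5199 50-base words with other transcripts, as many reads would be at the read length of 50 bases.

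Dnmt3a divided between a full-length form of 908 residues and a form of 689 residues that starts 84698 bases downstream, the short form known as Dnmt3a2 from an internal promoter. The 689-residue form took 30.2%, 8.64% and 37.8% of complete coding TPM, a mean of 25.5 ± 15.1%, the lowest share being that of library 2. Of Dnmt3a-205, its main transcript, 16 of 2279 50-base words were its own, and its authors' bounds in library 2 (up to 1.98 TPM) and library 1 (0.55 to 5.20 TPM) overlapped.

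For Dnmt3b, the 776-residue form that skips the 2 exons printed above took 49.7%, 38.8% and 69.1%, a mean of 52.5 ± 15.4%. The 839-residue form took 46.0%, 22.7% and 16.9%, and the 860-residue form took 4.26%, 38.5% and 14.0%. The 776-residue form was the most abundant in all 3 libraries, by little over the next form in libraries 1 and 2. None of the transcripts behind these forms has a 50-base word of its own, and the authors' lower bounds for the 4 leading ones in library 1 were near 0, so the division is an estimate of the model.

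Tet3 was divided evenly, with 52.7 ± 2.94% for the 1668-residue form and 47.3 ± 2.94% for the 1803-residue form. Mouse Tet3 is known as a longer protein with a DNA-binding CXXC zinc finger and shorter ones without it. More sequence separates its transcripts, with 5669 50-base words of Tet3-202 alone and 832 of Tet3-203 alone. Tet3-202 runs on to 83362373, past the end of Tet3-203 at 83368042. Its own words can thus come from that longer 3′ end, which does not separate the coding forms. Uhrf1 was divided between 782 and 774 residues, with the 782-residue form at 57.7%, 100% and 49.5%. The shift to 100% in library 2 came with no 50-base word particular to Uhrf1-204 or Uhrf1-203. The other 4 genes had 1 leading form, with 99.5% for the 414-residue Mbd2, 91.7 ± 4.87% for the 397-residue Tdg, 94.7 ± 9.20% for the 2039-residue Tet1 and 100% for the 1912-residue Tet2.

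**Figure D4:**
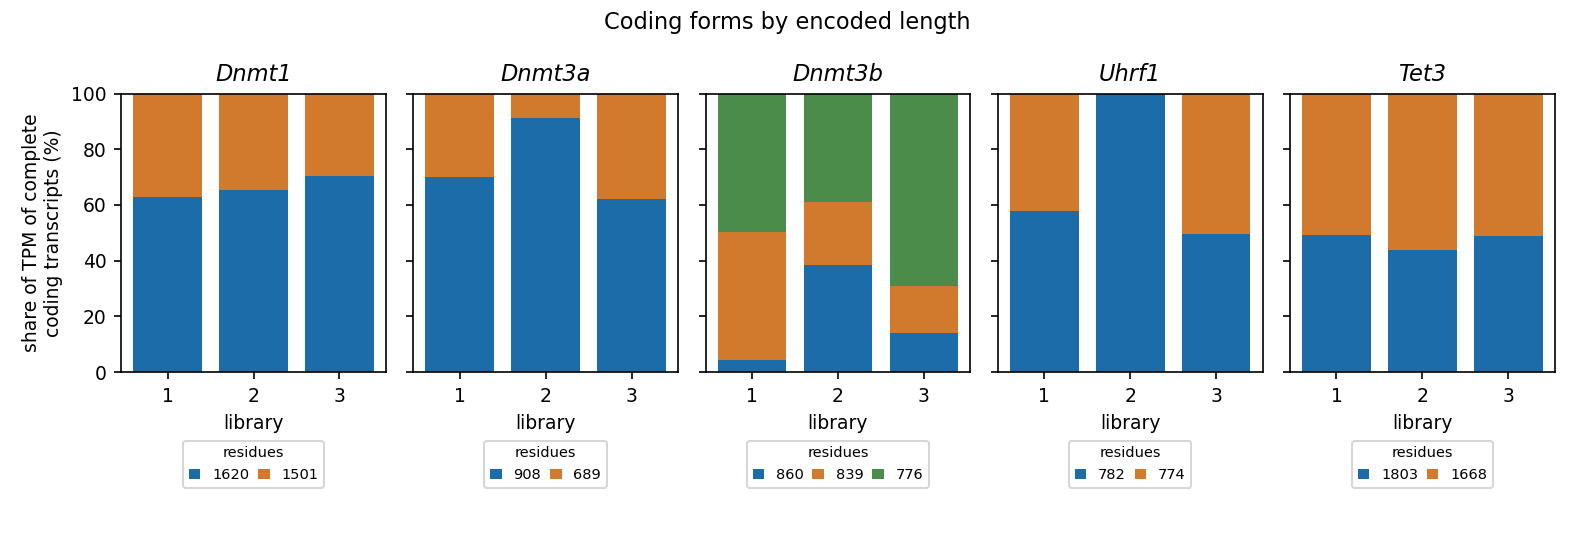
Share of complete coding TPM, in percent, taken by proteins of each annotated length in each library, for the 5 genes with more than 1 substantial form. Dnmt1 and Tet3 keep similar divisions in all libraries, whereas the 689-residue form of Dnmt3a ranges from 8.64% to 37.8% and the 782-residue form of Uhrf1 from 49.5% to 100%.

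A further deposited gene table holds whole-number counts against the older annotation M4 and departs from the expected counts most for Tdg. It gives Tdg 79, 87 and 91 counts in libraries 1 to 3, against 1889, 2194 and 1950 expected counts, or 4.26%. Over 10223 genes averaging 100 expected counts or more the median was 43.3% (interquartile range 26.8% to 59.4%), and 4.52% of genes lay below Tdg. Mbd2 was at 21.5% and Dnmt3a at 37.0%, and the other 6 genes lay between 43.9% for Uhrf1 and 73.6% for Tet1. On counts of this table per kilobase, Tdg lay below Dnmt3b by 0.81 and below Uhrf1 by 1.34 on the log2 scale, the reverse of the TPM order, and Tet2 lay above Dnmt3a by 0.42.

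Tdg is also the gene whose sequence is most shared with others. Of the 50-base words in its main coding transcript Tdg-201, 65.9% occur in another gene as well, mostly in the processed pseudogenes Tdg-ps, Gm9855 and Gm5597. Those pseudogenes were assigned at most 13.98 expected counts each in any library. Uhrf1 shares 15.4% of its words, nearly all with the pseudogene Gm5648, which had 0 expected counts. Dnmt3b shares 9.81% with its paralogue Dnmt3c, a methyltransferase of the male germ line, which had at most 6.60 expected counts. Mbd2 shares none. Expected counts are reads shared out among genes by the authors' model, whereas the sources used here do not give how the further gene table treated multiply placed reads. The level of Tdg is therefore uncertain between the tables.

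Differences between the libraries were largest for Uhrf1 and Dnmt3b, both highest in library 1. Uhrf1 had 792, 418 and 475 TMM-scaled counts in libraries 1, 2 and 3. Dnmt3b had 455, 287 and 294. Library 1 held 1.90 times the Uhrf1 of library 2 (95% counting interval 1.68 to 2.15) and 1.67 times that of library 3 (1.49 to 1.87). For Dnmt3b the ratios were 1.58 (1.36 to 1.85) and 1.55 (1.34 to 1.79). Libraries 2 and 3 did not differ for Uhrf1 beyond counting noise, with a ratio of 0.88 (0.768 to 1.01), nor for Dnmt3b, with a ratio of 0.979 (0.827 to 1.16). Intervals cover counting error only.

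A chi-square test of TMM-scaled counts against Poisson noise, which compares libraries and no conditions, called 8 of the 9 genes at a Benjamini-Hochberg adjusted p under 0.05, where it called 77% of all 18253 genes tested. Tet3 was the exception, with 3801, 3742 and 3815 scaled counts, a highest to lowest ratio of 1.02 and an adjusted p of 0.709 by this test on edgeR's scaling. Adding a highest to lowest ratio of at least 1.5 left 2 of the 9 genes, Uhrf1 (adjusted p = 8.86e-31) and Dnmt3b (adjusted p = 1.75e-11), where 36.5% of all genes passed both criteria. Among genes with mean counts from 100 to 1000, the range of Uhrf1, Dnmt3b and Tet1, 36.1% passed, and among genes with higher counts, the range of the other 6, 3.34% passed. The counts of 8 and of 2 are thus near these shares of all genes. Between single pairs of libraries, the test called 7 of the 9 genes for library 1 against library 2 (60.6% of all genes), 4 for library 1 against library 3 (48.7%) and 6 for library 2 against library 3 (57.7%). Uhrf1 and Dnmt3b were the 2 with a ratio of at least 1.5 in favour of library 1, both against library 2, where 16.6% of all genes were called that way, and against library 3, where 12.1% were. Without library 1, 0 of the 9 genes met the ratio call, and without library 2, 4 of the 9 exceeded Poisson noise.

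The other genes moved little and in no common direction. Tdg was highest in library 2, with 1812, 2407 and 1852 scaled counts and a ratio of 1.33. Dnmt1 had 6021, 5518 and 4755, a ratio of 1.27 with library 3 the lowest, and Tet2 had 2898, 2304 and 2771, a ratio of 1.26 with library 2 the lowest. Tet1 had 328, 314 and 378 (ratio 1.20), Dnmt3a 2912, 3430 and 3229 (ratio 1.18) and Mbd2 10202, 10779 and 10099 (ratio 1.07).

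**Figure D5:**
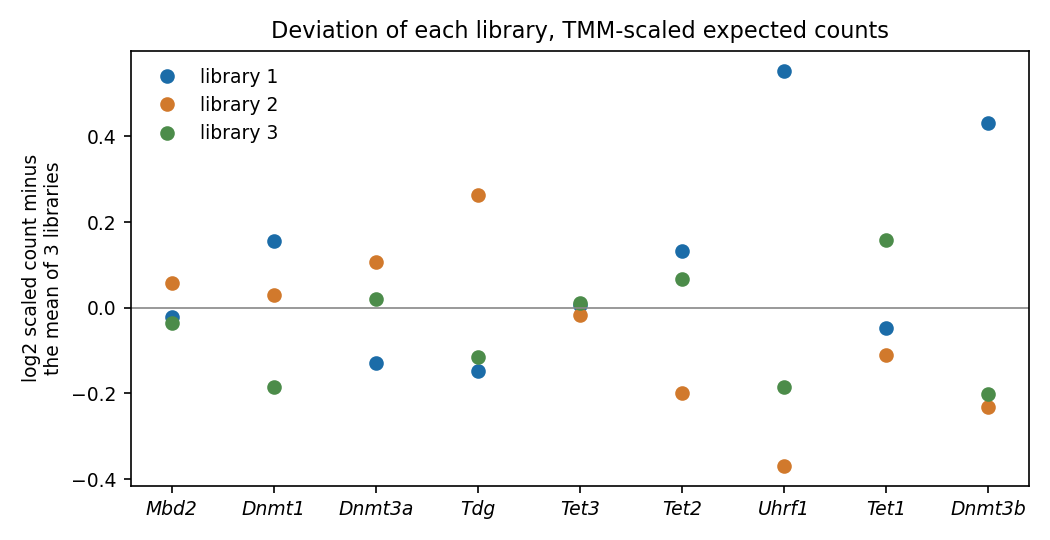
Deviation of each library's log2 TMM-scaled count from the mean of the 3 libraries. Uhrf1 and Dnmt3b lie 0.55 and 0.43 above their means in library 1, while Mbd2 and Tet3 stay within 0.06.

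Uhrf1 is a gene of replicating cells, and the medians of replication and of mitotic genes were also higher in library 1, by less. Of 15 replication genes, 13 were detected, and they summed to 643, 566 and 571 TPM. In scaled counts library 1 exceeded library 2 for 13 of the 15 (median log2 ratio 0.17) and exceeded library 3 for 8 of the 15 (median 0.12), while the median of all genes was 0.01 in both comparisons. Of 11 mitotic genes, 9 were detected, with sums of 64.6, 51.2 and 43.6 TPM. Library 1 exceeded library 2 for 6 of the 11 (median 0.14) and library 3 for 10 of the 11 (median 0.53). The ratio call was met by 4 of the 15 replication genes, 2 of them highest in library 1, and by 7 of the 11 mitotic genes, 5 of them highest in library 1, against 36.5% of all genes. Mean counts from 100 to 1000 were held by 6 of the 15 replication genes and 9 of the 11 mitotic genes. There, 3 of 6 replication genes and 5 of 9 mitotic genes met the call, against 36.1% of all genes in that range. The remaining calls were 1 of 1 in each list with mean counts from 10 to 100, where 68.4% of all genes met it, and 0 of 8 replication genes and 1 of 1 mitotic gene with higher counts, where 3.34% did. The part of cycling cells in the Uhrf1 and Dnmt3b values was not tested.

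The other genes of these pathways were present with few gaps. Of 8 maintenance genes all were detected. Pcna, the replication clamp, was the highest at 115 ± 10.4 TPM, and Uhrf2, the UHRF1 paralogue, had 86.0 ± 8.37 TPM, far above the 8.10 of Uhrf1. Hells, a chromatin remodeller needed for DNA methylation, was the lowest other gene at 14.2 ± 3.62 TPM.

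Of 7 genes for de novo methylation and for the histone H3 lysine 36 marks that DNMT3 enzymes read, 6 were detected. The methyltransferases Nsd3 and Nsd1 stood at 87.3 ± 5.13 and 60.4 ± 6.61 TPM. Dnmt3l, the cofactor without catalytic activity known from germ cells, was at 0.11, 0 and 0.31 TPM.

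Among 8 methyl-CpG binding proteins, 7 were detected, and Mbd2 led them. Mbd3, a NuRD subunit, followed at 142 ± 4.19 TPM and Mbd1 at 64.4 ± 2.84 TPM, while Zbtb33 (Kaiso) was lowest at 1.35 ± 0.494 TPM. All 14 NuRD genes were detected, and their median level was 112 TPM. Rbbp4 (259 ± 8.95 TPM) and Hdac1 (241 ± 21.9 TPM) were the highest apart from Mbd2 and Gatad2b the lowest (8.53 ± 1.49 TPM).

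On the demethylation side, 5 of 7 TET genes and partners were detected. Ogt, the glycosyltransferase that binds TET proteins, was at 228 ± 21.3 TPM, far above any TET gene. Cxxc5 was at 3.44 ± 0.829 TPM, and Wt1, a DNA-binding partner of TET2, was at 0.05, 0 and 0.20 TPM. Of 12 base excision repair genes, 10 were detected. Parp1 (59.2 ± 3.08 TPM) and Xrcc1 (54.6 ± 7.91 TPM) were the highest, above Tdg, with the glycosylase Neil3 lowest at 0.90 ± 0.409 TPM. Among Gadd45 and APOBEC genes, Apobec3 was at 403 ± 34.96 TPM and Gadd45b at 66.4 ± 19.4 TPM.

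The genes listed around the cofactors were all detected. Of 9 genes around 2-oxoglutarate, the TET cosubstrate, Sdha (258 ± 9.24 TPM) and Idh3g (173 ± 9.64 TPM) were the highest. Of 8 genes around S-adenosylmethionine, the methyl donor of the DNMT enzymes, Mat2a (265 ± 15.5 TPM) and Mat2b (217 ± 21.3 TPM) led and Shmt1 was lowest (13.5 ± 2.74 TPM). Finally, all 6 genes known to carry regions demethylated in regulatory T cells were detected, with Tnfrsf18 (GITR) at 847 ± 85.8 TPM, Ikzf2 (Helios) at 377 ± 50.7 TPM and Ikzf4 (Eos) lowest at 85.0 ± 2.76 TPM.

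The ratio call was met by 1 of 8 maintenance genes (Uhrf1), 1 of 6 de novo genes tested (Dnmt3b), 2 of 8 methyl-CpG binders, 1 of 6 TET genes and partners tested, 4 of 12 repair genes and 0 of 14 NuRD genes, against 36.5% of all genes. Every one of those calls fell on a gene with a mean count below 1000. Of the genes in these lists with higher counts, 0 of 5, 0 of 5, 0 of 5, 0 of 3, 0 of 6 and 0 of 13 in the same order met the call, in a range where 3.34% of all genes did. In the Gadd45 and APOBEC list 2 of 6 genes tested met the call, with 1 of 2 at higher counts. The 2-oxoglutarate list had 1 of 9 and the S-adenosylmethionine list 1 of 8, with 0 of 7 and 0 of 6 at higher counts. The list of genes with demethylated regions had 0 of 6.

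By Euclidean distance of log2(TPM + 1) over the 3 libraries, among 12573 genes with mean counts of 50 or more, the genes closest to Mbd2 were Hnrnpm at 0.03 and Fermt3 at 0.04, and 56 genes lay within 0.2. Those closest to Dnmt3b were Gm12735 at 0.09 and Gm13204 at 0.10, with 10 genes within 0.2. Uhrf1 had 3 genes within 0.2, the fewest of the 9 genes. The nearest was Prc1, a cytokinesis gene, at a distance of 0.16 and at 11.69, 6.67 and 6.43 TPM. Pde8a came next, at a distance of 0.19 and at 10.36, 6 and 6.73 TPM. Both were named here after their values were seen. These distances describe likeness of level in 3 libraries of 1 biosample.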

How the data were processed

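Polyadenylated RNA of 1 biosample of mouse regulatory T cells was sequenced as 3 libraries. The authors' gene and transcript tables give expected counts, TPM, posterior mean TPM with bounds (a score here, since their level is not stated) and FPKM against GENCODE M21 on mm10, and the percent of a gene's TPM in each transcript, per the file headers. A further deposited table holds whole-number counts per gene (annotation M4) with totals of 9718021, 8945992 and 9904722. The aligner, the counting program and duplicate handling are not given in the sources used here. Rows that name no gene took 0.170%, 0.170% and 0.218% of expected counts and stayed out of library sizes and tests. Effective lengths lie 49 bases below transcript lengths, which implies reads of 50 bases. Levels are the deposited TPM.

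Expected counts were rounded and scaled by TMM (edgeR 4.0.16, R 4.3.3). Genes averaging at least 10 counts were tested by chi-square against Poisson noise with Benjamini-Hochberg adjustment at 0.05, since 1 group allows no quasi-likelihood contrast. The common biological coefficient of variation over the libraries was 0.400. It is 1 value for all genes averaging at least 10 counts, gland genes included, and not for the 9 genes. Pairs of genes were compared by exact sign-flip permutation on log2(TPM + 1). Sequences came from RefSeq promoter windows and GENCODE M21 transcripts, and a 50-base word counted as shared where another gene's transcript holds it. Alternatives were DESeq2 1.42.0 size factors, total counts, other count minimums, the further table, other level units and leaving out each library. The remaining steps ran in Python 3.11.15 (scipy 1.17.1, pandas 2.3.3, numpy 2.4.6, matplotlib 3.10.9). The 9 genes and all lists were chosen with earlier results of these data known. Named were all 9 genes, of each list the 2 highest and the lowest other gene, and the genes nearest in level to the highest and the lowest of the 9. The lowest gene of 2 lists is not reported here.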

Additional observations from a re-analysis of the deposited data

How the results depend on the processing

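No paired analysis was possible because all libraries belong to 1 group. The 2 genes that met the ratio call, Uhrf1 and Dnmt3b, became 0 with a ratio of at least 2, and leaving out each library gave 0 to 2, with 0 without library 1. Leaving out each library gave 4 to 7 genes beyond Poisson noise, with 4 without library 2. DESeq2 size factors, total counts, other count minimums and the further gene table gave 6 to 8 genes, 2 of them by the ratio call. Pairs apart numbered 26 to 29 where the authors' bounds applied. They numbered 28 in the gene TPM without the bounds, a check chosen after seeing the data, and 32 to 35 on the alternatives that have no bounds, namely the sums over coding transcripts and the counts per kilobase. Of these alternatives, the further gene table alone put pairs apart with the bounds in the other order. By sign and range alone, Dnmt3a was apart above Tet3 in the gene TPM. Complete coding sequences and the further gene table both reversed that pair.

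Mean levels depended on which transcripts were summed. With transcripts of coding biotype they were 23.25 TPM for Dnmt3a, 1.52 for Tet1, 20.3 for Tet2, 21.6 for Tet3 and 232 for Mbd2. With complete coding sequences alone, chosen after seeing the data, they were 12.9 for Dnmt3a, 0.577 for Tet1, 10.25 for Tet2, 15.4 for Tet3, 29.1 for Tdg and 232 for Mbd2. With counts per kilobase of the longest complete coding transcript, also chosen afterwards, they were 20.7 for Dnmt3a, 1.48 for Tet1, 18.2 for Tet2, 21.8 for Tet3 and 334 for Mbd2. Posterior mean TPM gave 6.37 for Tet1, 34.9 for Tet3 and 279 for Mbd2. From posterior means the leading transcript held 55.8% in Dnmt1, 65.4% in Tet1 and 66.7% in Tdg, and among transcripts of coding biotype 66.1% in Dnmt1, 51.6% in Tet2, 84.5% in Tdg and 99.5% in Mbd2. The other 131 recomputed values moved by less than their spread or kept their call. Where that spread was wide the move could be large. On posterior means the leading Uhrf1 transcript fell from 65.9 ± 29.9% to 39.95%, and the leading Dnmt3b transcript from 25.6 ± 17.6% to 15.9%.

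The single donor, libraries labelled technical whose common biological coefficient of variation was 0.400, and reads of 50 bases limit these results: transcript shares of Dnmt1, Dnmt3a, Dnmt3b and Uhrf1 rest on few or no particular words of sequence. The level of Tdg depends on the table.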
